A study of Mus musculus with 6 samples.

Results

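The genes of replication origin licensing were examined as 10 members, the helicase subunits Mcm2, Mcm3, Mcm4, Mcm5, Mcm6 and Mcm7, the loaders Cdc6 and Cdt1, the licensing inhibitor Gmnn, which encodes geminin, and the helicase activator Mcm10. They were chosen by function, with earlier results of these data known. A probe set of the array, a group of short probes for one transcript, counted as theirs where the array annotation gave it this one gene symbol only. The 10 genes, of 18193 measured, have 27 such probe sets of 34945. Each gene is represented by its main probe set, the one with the highest mean log2 signal over the 6 arrays, and the other probe sets serve as a check. iLarge T BMSC are bone marrow stromal cells of the H-2Kb-tsA58 mouse, a CBA/ca and C57Bl/10 hybrid that carries the temperature-sensitive large T antigen of the SV40 virus, which were injected intravenously into male C57Bl/6J mice aged 6 to 8 weeks 24 h after a middle cerebral artery occlusion of 60 min. These cells were taken from the infarcted hemisphere 14 days later with collagenase and selected by growth at 33°C. Naïve Large T BMSC are the population that was injected, cultured at 33°C. Both groups were passaged 3 times in culture. The passage through the brain, the enzymatic release and the regrowth cannot be told apart in this design. Each group has 3 arrays, numbered 2, 4 and 6 for iLarge T and 1, 3 and 5 for naïve, and each array holds RNA pooled from 3 hemispheres or 3 sets of naïve cells.

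Licensing prepares DNA for a single round of copying in each cell cycle. In G1 the origin recognition complex, Cdc6 and Cdt1 load the ring of Mcm2 to Mcm7 onto DNA in an inactive form. In S phase the kinase of Cdc7 and Dbf4, together with Cdc45, the GINS complex and Mcm10, turns this ring into the moving helicase, and geminin holds Cdt1 until mitosis so that no origin is loaded again. The MCM genes are classical targets of E2F transcription factors, their products are widely used as markers of cells in cycle, and their transcripts decline when cells leave the cycle. Large T antigen binds the retinoblastoma family of pocket proteins, which otherwise hold E2F in check.

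E2F sites are the regulatory sequence for which licensing genes are best known, so the RefSeq promoters (GRCm38.p6, 250 bases before to 50 after the start site) of the members were searched for the letters TTTCGCGC and TTTGGCGC on both strands, where a match can overlap another. The table holds promoters of 8 of the 10 genes, 9 entries in all. Of these genes, 5 carried a match, against 0.929% of the 27025 genes of the whole table and 1.45% of its 14452 genes that were measured on the arrays. The CCAAT box (CCAAT, both strands) stood in the promoters of 6 of the 8 genes, against 41.1% of all genes. It also stood in those of 85.7% of 7 proliferation markers and 66.7% of 6 genes of the origin recognition complex. For 7 genes of helicase activation the share was 42.9%. The matching stretches are shown with the E2F letters in capitals, read in the direction of the gene. They lie at chr8:75109332-75109391 on the plus strand for Mcm5, chr1:128359721-128359839 on the minus strand for Mcm6, chr1:20820263-20820292 on the minus strand for Mcm3, chr5:138171849-138171878 on the minus strand for Mcm7 and chr8:122568035-122568064 on the plus strand for Cdt1.
Mcm5: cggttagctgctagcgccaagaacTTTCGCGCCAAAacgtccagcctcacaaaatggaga
Mcm6: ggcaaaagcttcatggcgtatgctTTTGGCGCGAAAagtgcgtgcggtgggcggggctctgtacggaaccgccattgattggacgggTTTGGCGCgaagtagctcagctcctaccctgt
Mcm3: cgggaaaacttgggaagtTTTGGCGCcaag
Mcm7: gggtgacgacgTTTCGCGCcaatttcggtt
Cdt1: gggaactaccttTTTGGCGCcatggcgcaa
In Mcm5 and in the first site of Mcm6 a match on each strand overlaps, so that the capitals run over 12 letters. The sites of Mcm5 and Mcm6 lie before the start site and those of Mcm3, Mcm7 and Cdt1 after it, at 39, 17 and 33 bases. No match to these letters stood in the windows of Mcm2, Cdc6 and Mcm10. A match is a description of the sequence and was not set against any binding data.

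The values are MAS5 signals, an intensity per probe set on a linear scale that the authors scaled to the same trimmed mean of 2500 on every array. The 40th percentile of an array, 183 to 299.6, served as the limit of near background, since no detection calls were used. Across probe sets, log2 signals correlated at 0.845 to 0.863 among iLarge T arrays and at 0.829 to 0.892 among naïve arrays, with naïve replicate 1 the one that stood apart, and at 0.789 to 0.824 between the groups. All 8 stromal markers measured, among them Col1a1, Col3a1 and Cd44, lay above the limit on all 6 arrays. Their levels were not all alike between the groups. By limma Vcam1 was called lower in iLarge T BMSC (log2 difference -2.81, adjusted p = 0.00130) and Cd44 higher (2.04, adjusted p = 0.0305), and the other 6 were not called. Some markers of other cells differed on all 3 iLarge T arrays, whereas for others the groups overlapped. Endothelial Cdh5 had 2211, 2787 and 23797 in iLarge T BMSC, against 209.9, 32.0 and 27.5 in naïve BMSC, all under the limit, and was called higher (adjusted p = 0.00760). Csf1r of macrophages had 3716, 1892 and 5673 in iLarge T BMSC, against 883, 330.2 and 339 in naïve BMSC, and was called higher (adjusted p = 0.0151), as was Tubb3 of neurons (adjusted p = 0.0490). Endothelial Tek ran the other way, with 502, 458 and 1300.3 in iLarge T BMSC, against 5703, 8480.0 and 9080.2 in naïve BMSC, and was called lower (adjusted p = 0.00243). Of 6 macrophage and microglia markers Csf1r alone was called, at 1 of its 3 probe sets. Cd68 of this list was not called (log2 difference -0.88, limma adjusted p = 0.822). It had 317, 1329 and 16962 in iLarge T BMSC, against 544, 9873 and 8396 in naïve BMSC. Of 4 neuron markers Tubb3 alone was called at its main probe set, and 1 of the 4 probe sets of Syt1 was called lower. Endothelial Pecam1, the blood cell marker Ptprc and C1qa of macrophages were not called, but had 3560, 4440 and 8547 on iLarge T replicate 6, the highest of the 6 arrays for each. The summed signal of the 6 macrophage and microglia markers was 4011 to 35332 in iLarge T and 2441 to 10554 in naïve BMSC, and that of the 4 endothelial markers 3402 to 29824 and 6455 to 9289. Most of the endothelial sum came from Cdh5 in iLarge T BMSC and from Tek in naïve BMSC. In iLarge T BMSC the sums were 370 to 5699 for 2 blood cell markers, 1153 to 4895 for 4 astrocyte markers, 2311 to 6039 for 4 neuron markers and 253 to 1414 for 3 oligodendrocyte markers. In naïve BMSC the same sums were 171 to 211, 464 to 776, 487 to 1632 and 897 to 1266. Tubb3 made up most of the neuron sum in iLarge T BMSC. The part of other cells in the differences was not tested, and the licensing genes are also given without iLarge T replicate 6, where most of these sums were highest. In RNA of whole cultures, fewer cells that express a gene and less of its RNA in each cell cannot be told apart.

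The log2 difference, iLarge T minus naïve, was negative at all 10 main probe sets, as at 47.5% of all genes, and 9 of the 10 genes fell by the test, with Mcm10 the exception. The test was that of limma, whose linear model pools information on the variance over the 45037 probe sets, and p-values were adjusted over all of these after Benjamini and Hochberg. To be called, a gene needed an adjusted p below 0.05 together with a difference of 2-fold or more. Of all 18193 genes, 3.26% were called lower and 3.54% higher. The median log2 difference of the 10 genes was -3.14, against 0.06 over all genes. No iLarge T signal reached a naïve signal at the 10 main probe sets, a separation that 13.1% of all genes show in this direction. For a single gene, a two-sided exact permutation test of 3 arrays against 3 cannot give a p below 0.1, so the calls rest on the spread shared across probe sets.

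**Figure D1:**
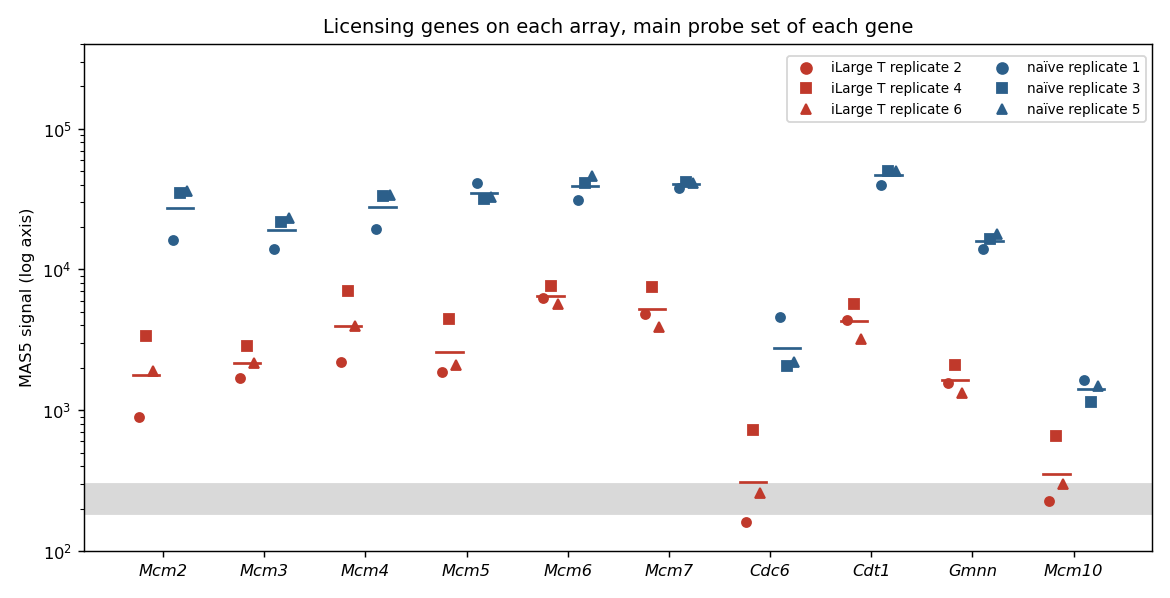
MAS5 signal of each licensing gene (log axis) on the 3 iLarge T arrays (red, left of each pair) and the 3 naïve arrays (blue, right), with a bar at the geometric mean of each group and a grey band over the 40th percentiles of the 6 arrays (183 to 299.6). For all 10 genes the red points lie under all blue points, and the square, iLarge T replicate 4, is the highest red point of every gene.

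Among the subunits of the helicase ring, Mcm2 had the largest difference at its main probe set. Mcm2, whose long N-terminal tail also carries histones, had signals of 889, 3351 and 1913 on iLarge T replicates 2, 4 and 6, against 16151, 34749 and 36167 on naïve replicates 1, 3 and 5. The groups were well apart although both spread widely, with naïve replicate 1 below the other naïve arrays and iLarge T replicate 4 above the rest of its group. Mcm2 was thus 15.3-fold lower in iLarge T BMSC, a log2 difference of -3.93 (standard error 0.48, adjusted p = 0.00237 by limma). Its other probe set gave -2.93 (standard error 0.40, adjusted p = 0.00374).

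Mcm5, the subunit that forms the gate of the ring with Mcm2, had 1882, 4442 and 2101 in iLarge T BMSC, against 41388, 31462 and 32819 in naïve BMSC. Here naïve replicate 1 was the highest of its group, the reverse of Mcm2. The log2 difference was -3.75 (standard error 0.34, adjusted p = 0.000675), or 13.5-fold lower. The other probe sets of Mcm5 were called too, at -4.17 (standard error 0.51, adjusted p = 0.00237) and -3.06 (standard error 0.56, adjusted p = 0.0138), and at the dimmer one of these, with -3.06, 2 of 3 iLarge T arrays lay under the 40th percentile.

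Mcm3 had 1691, 2853 and 2148 in iLarge T BMSC, against 13980, 21602 and 23264 in naïve BMSC, and was 8.79-fold lower (log2 difference -3.14, standard error 0.30, adjusted p = 0.000852). Mcm7 had 4863, 7501 and 3889 in iLarge T BMSC, against 37805, 41711 and 41415 in naïve BMSC, and was 7.72-fold lower (log2 difference -2.95, standard error 0.28, adjusted p = 0.000790). The naïve signals of Mcm7 lay closer together than those of any other licensing gene, with an SD of 0.08 on the log2 scale. Mcm7 is one of the subunits that, with Mcm4 and Mcm6, form the catalytic core of the ring.

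Mcm4 and Mcm6 showed the smallest differences of the ring, and both fell. Mcm4 had 2198, 7057 and 3956 in iLarge T BMSC, against 19328, 33240 and 33837 in naïve BMSC, with a log2 difference of -2.82 (standard error 0.41, adjusted p = 0.00520). Mcm6 had 6256, 7575 and 5653 in iLarge T BMSC, against 31259, 41459 and 46288 in naïve BMSC, with a log2 difference of -2.60 (standard error 0.25, adjusted p = 0.000852). The iLarge T signals of Mcm6 were the tightest of the 10 genes, with an SD of 0.21 on the log2 scale, whereas those of Mcm4 had an SD of 0.84. The 6 ring subunits thus lay between 6.07-fold and 15.3-fold lower, and their 95% intervals overlapped, from -5.01 to -2.85 for Mcm2 and from -3.16 to -2.05 for Mcm6. Differences between subunits were not tested.

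Both loaders fell. Cdt1, which brings the ring to the origin, had 4378, 5720 and 3221 in iLarge T BMSC, against 40125, 50297 and 50429 in naïve BMSC, and was 10.8-fold lower (log2 difference -3.43, standard error 0.27, adjusted p = 0.000459). Its second probe set gave nearly the same value, -3.45 (standard error 0.50, adjusted p = 0.00509), although its naïve signals of 8325, 26338 and 21428 were far from even. Cdc6, the ATPase that completes the loading platform, had 159, 727 and 257 in iLarge T BMSC, against 4594, 2058 and 2194 in naïve BMSC. It was thus dim in iLarge T BMSC, with replicate 2 under the 40th percentile, and was brightest on naïve replicate 1. The log2 difference of Cdc6 was -3.15 (standard error 0.61, adjusted p = 0.0181), and its single probe set allows no check within the gene. The call of Cdc6 was lost without iLarge T replicate 2 (adjusted p = 0.0612) or 6 (0.0716) and without naïve replicate 3 (0.0562) or 5 (0.0524), and the difference was -3.76 without iLarge T replicate 4.

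Gmnn, the inhibitor of Cdt1, moved in the same direction as its target. Geminin transcripts gave 1554, 2111 and 1327 in iLarge T BMSC, against 13954, 16362 and 17989 in naïve BMSC, 9.81-fold lower (log2 difference -3.29, standard error 0.27, adjusted p = 0.000531). The difference of Gmnn lay within the 95% interval of that of Cdt1, -4.04 to -2.83. Mcm10, which is required to start the loaded helicase, was the one member that was not called. Its signals were 225, 653 and 301 in iLarge T BMSC, against 1646, 1142 and 1497 in naïve BMSC, and 1 iLarge T array lay under the 40th percentile. The groups did not overlap, and the log2 difference was -1.998 (95% interval -3.18 to -0.82, adjusted p = 0.0651).

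Over all 27 probe sets of the 10 genes, 21 were called lower and none higher, against 2.27% lower and 2.47% higher of all 45037 probe sets. Of the 27, 26 had a negative log2 difference, as did 49.4% of all, and 23 separated the groups with iLarge T below, as did 11.4% of all. Besides the 3 of Mcm10, those not called were dim probe sets of Mcm3, Mcm6 and Cdt1 whose brightest signals were 591, 411 and 242. That of Mcm6 was the only one with a positive difference, 0.63 (95% interval -1.39 to 2.65), with 411, 220 and 103 in iLarge T against 220, 102 and 112 in naïve BMSC. The dim probe set of Mcm3 gave -0.63 (95% interval -2.54 to 1.27) and that of Cdt1 -2.12 (95% interval -5.28 to 1.03), and at all 3 the groups overlapped. The further probe sets of Mcm10 gave -2.50 (adjusted p = 0.160) and -2.06 (adjusted p = 0.523). Probe sets of one gene read the same RNA and are not replicates of the condition.

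**Figure D2:**
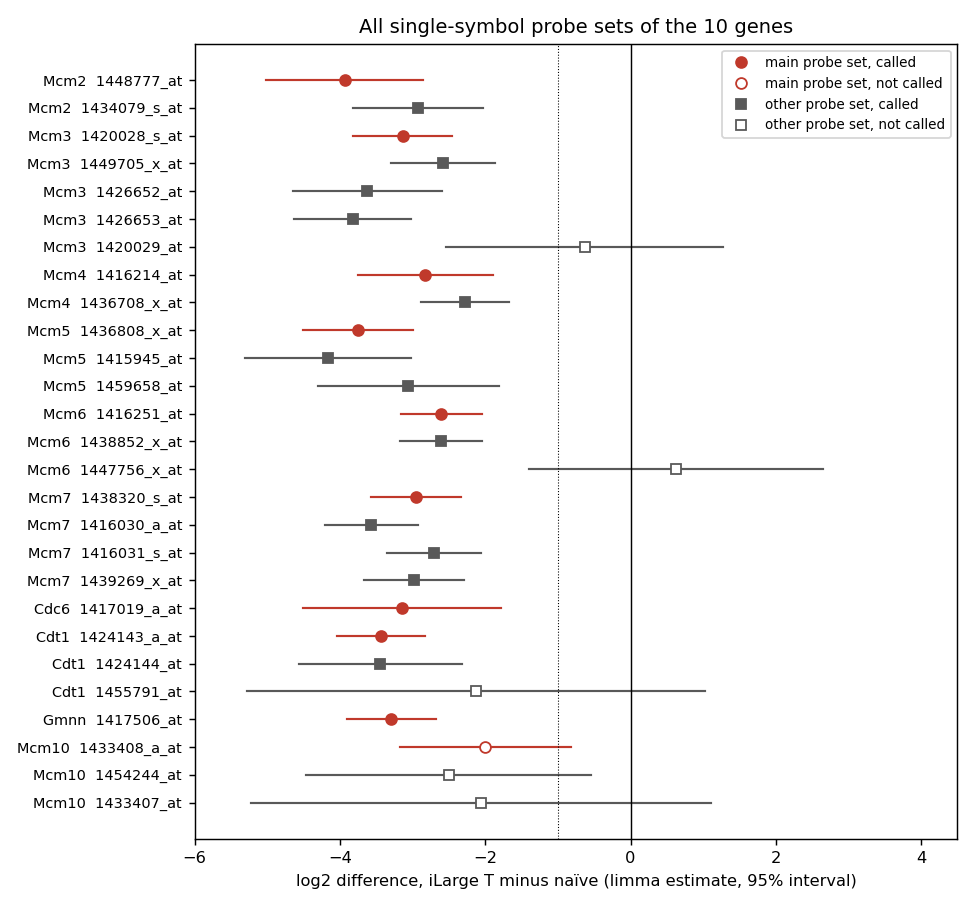
Log2 difference, iLarge T minus naïve, of each of the 27 probe sets of the licensing genes, with the 95% interval from limma. Main probe sets are red circles and others grey squares, filled where called. The dotted line marks a 2-fold decrease. Filled symbols lie between -4.17 and -2.28, and the open symbols belong to Mcm3, Mcm6, Cdt1 and Mcm10.

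The licensing genes also followed each other from array to array. iLarge T replicate 4 was the highest of its group for all 10 genes, and its mean over Mcm2 to Mcm7 lay 0.61 above the group mean on the log2 scale, against -0.47 for replicate 2 and -0.14 for replicate 6. Among naïve arrays, replicate 1 had the lowest signal of 5 of the 6 ring subunits, at a mean of -0.32 from the group mean, but the highest signal of Mcm5, Cdc6 and Mcm10. Over the 45 pairs of licensing genes the median Pearson correlation of log2 signals was 0.97 across the 6 arrays, and 0.63 (range 0.03 to 0.99) once the group means were removed. The 6 arrays share the scaling and the group difference, so these correlations describe the arrays and carry no test.

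The proliferation markers fell with the licensing genes. Of 8 measured, 8 were called lower, against 3.26% of all genes, with a median log2 difference of -2.52. By either t-test, or by limma without the intensity trend, 0 of the 8 passed, although at an unadjusted p under 0.05 these gave 8 by the t-test on log2 signals, 5 on linear signals and 8 without the trend. Mki67, the antigen Ki-67 of cycling cells, had 1133, 2310 and 867 in iLarge T BMSC, against 17733, 8239 and 7843 in naïve BMSC (log2 difference -2.99, standard error 0.44, adjusted p = 0.00527). The values were -2.98 for the mitotic kinase Aurkb (adjusted p = 0.00405), -2.97 for the topoisomerase Top2a (adjusted p = 0.00484) and -2.56 for the mitotic kinase Plk1 (adjusted p = 0.0335), and Pcna, the sliding clamp of replication, which was singled out after its values were seen, gave -1.66 (adjusted p = 0.00437). The summed signal of the markers was 33003 to 54550 in iLarge T and 138843 to 233281 in naïve BMSC, with Pcna the largest part on every array. As with the licensing genes, iLarge T replicate 4 was the highest of its group for all 8 markers. Naïve replicate 1, lowest of its group for most ring subunits, was the highest of its group for all 8 proliferation markers, at a mean of 0.65 above the group mean. The part of the share of cycling cells in the change of the licensing genes was not tested. With iLarge T replicate 2 left out 5 of the markers were called, and with iLarge T replicate 6 left out 4 were.

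**Figure D3:**
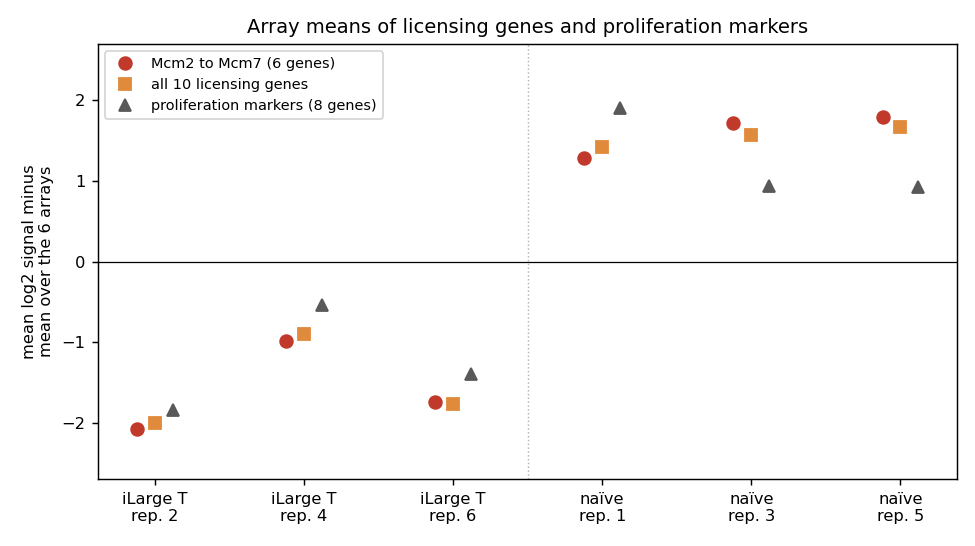
Mean log2 signal of Mcm2 to Mcm7, of all 10 licensing genes and of 8 proliferation markers on each array, minus the mean over the 6 arrays, with iLarge T arrays on the left and naïve arrays on the right. Among iLarge T arrays replicate 4 is the highest in all 3 sets (-0.99 for Mcm2 to Mcm7), while on naïve replicate 1 the markers are at their highest (1.90) and Mcm2 to Mcm7 at the lowest of the naïve group (1.28).

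Partners of the ring were read from lists of the pathway. Of 35 genes in 5 lists, 14 fell, against 3.26% of all genes, none rose and 21 were not called, with a median log2 difference of -1.42. At an unadjusted p under 0.05, limma gave 23 of the 35 lower and 0 higher, against 10.5% of all genes lower and 11.6% higher. The lower count was 20 by the t-test on log2 signals, 19 on linear signals and 19 by limma without the intensity trend. The count of 14 genes called dropped to 2 by the t-test on log2 signals and to 1 on linear signals. It was 1 by limma without the intensity trend, 7 without naïve replicate 3 and 8 without naïve replicate 5.

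Most of the factors that turn the loaded ring into the active helicase fell. Of 12 measured, 8 were called, namely Cdc45, Cdc7, Gins1, Gins2, Mtbp, Dbf4, Gins4 and Topbp1, and all 12 had a negative difference, with a median of -2.15. Cdc45, the partner of the ring in the moving helicase, had 55.8, 927 and 343 in iLarge T BMSC, against 4250 on naïve replicate 1, 3653 on replicate 3 and 3458 on replicate 5 (log2 difference -3.85, standard error 0.85, adjusted p = 0.0311). The iLarge T signals of Cdc45 were uneven, with replicate 2 under the 40th percentile, as it was for Cdc7. Cdc7, the kinase that phosphorylates the ring, had a log2 difference of -3.22 (adjusted p = 0.0265), and the GINS subunits Gins1 and Gins2 had -3.17 (adjusted p = 0.00193) and -2.25 (adjusted p = 0.00241). Cdc45, Cdc7, Gins1, Dbf4 and Topbp1 each have 2 probe sets, of which the main one was called. The other was not, at 0.50, -2.18, -2.41, -2.96 and -0.05. Those of Gins1 and Topbp1 lay under the 40th percentile on all 6 arrays, and that of Dbf4 on 3 iLarge T and 2 naïve arrays. That of Cdc45 was dim, at 202 to 335 over the 6 arrays. The list had 5 genes called without naïve replicate 3, 5 without naïve replicate 5 and 5 at the most variable probe set of each gene. It had 2 called by the t-test on log2 signals, 1 on linear signals and 1 by limma without the intensity trend.

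The origin recognition complex, on which the ring is loaded, had the median nearest to 0 of the 5 lists. Of its 6 subunits Orc6 fell and 5 were not called, with a median log2 difference of -0.54. Orc6 had 5328, 7231 and 3640 in iLarge T BMSC, against 16860, 14945 and 13504 in naïve BMSC (log2 difference -1.53, standard error 0.29, adjusted p = 0.0163). Its call was lost without iLarge T replicate 2 or 6 or naïve replicate 3, by both t-tests and by limma without the intensity trend. Orc4 had 10754, 8497 and 8170 in iLarge T BMSC, against 8947, 8649 and 8242 in naïve BMSC, so that its groups overlapped (log2 difference 0.08, standard error 0.23, adjusted p = 0.920). The differences of Orc2 and Orc3 were -0.42 (adjusted p = 0.467) and -0.65 (adjusted p = 0.207). Orc1, the ATPase subunit that cycles with the cell, was singled out after its values were seen and gave -1.82 (adjusted p = 0.0513). All 6 subunits lay above the 40th percentile on all arrays. The differences of the ring subunits, -3.93 to -2.60, and those of the complex, -1.82 to 0.08, did not overlap, but the contrast between the 2 sets was not tested.

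Of the 4 genes measured that act at the moving fork, Timeless (log2 difference -3.23, adjusted p = 0.00759), Wdhd1 (-1.91, adjusted p = 0.0126) and Tipin (-1.51, adjusted p = 0.00683) fell. For Timeless, iLarge T replicate 2 lay under the 40th percentile. Clspn, the checkpoint mediator claspin, gave -1.66 (adjusted p = 0.0687). By either t-test, or by limma without the intensity trend, 0 of these 4 genes passed. Of 4 relatives and binders of the ring, 1 fell. Mcm8, a helicase of recombination, had -1.86 (adjusted p = 0.0339), whereas Mcmbp, which binds the ring subunits, Mcm9 and Mcm3ap were not called at -0.77, -0.47 and -0.18. The call of Mcm8 was lost in 5 of the 6 fits that left out an array, all but that without naïve replicate 1. It was also lost by both t-tests and by limma without the intensity trend.

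Of 9 genes that control licensing factors, 1 fell, Lrwd1, which holds the origin recognition complex on chromatin (log2 difference -1.37, adjusted p = 0.0201). The other 8 were not called at their main probe sets. Of the 9, 8 had a negative difference, as did 47.5% of all genes, with a median of -0.62. At an unadjusted p under 0.05, limma gave 4 of the 9 lower and 0 higher, against 10.5% of all genes lower and 11.6% higher. The lower count was 1 by the t-test on log2 signals, 2 on linear signals and 2 by limma without the intensity trend. Ddb1 and Cul4a, core parts of the ubiquitin ligase that destroys Cdt1 in S phase, gave -0.20 (adjusted p = 0.731) and 0.09 (adjusted p = 0.935), with overlapping groups. Kat7, the histone acetyltransferase that assists loading, gave -0.66 (adjusted p = 0.320). Dtl, the subunit of this ligase that recognises Cdt1, was singled out after its values were seen. At 22.3, 799.6 and 635 in iLarge T, against 4000.0, 2705 and 2716 in naïve BMSC, it did not pass (log2 difference -3.78, standard error 1.14, adjusted p = 0.103), with iLarge T replicate 2 under the 40th percentile. Of its 6 probe sets 1 was called lower, with 251, 175 and 152 in iLarge T BMSC, all under the 40th percentile, against 1966, 1348 and 1449 in naïve BMSC (adjusted p = 0.00958). The count of genes called in the list was 2 without iLarge T replicate 2, 0 without iLarge T replicate 4 or 6 and 0 without naïve replicate 3 or 5. It was also 0 by both t-tests and by limma without the intensity trend.

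**Figure D4:**
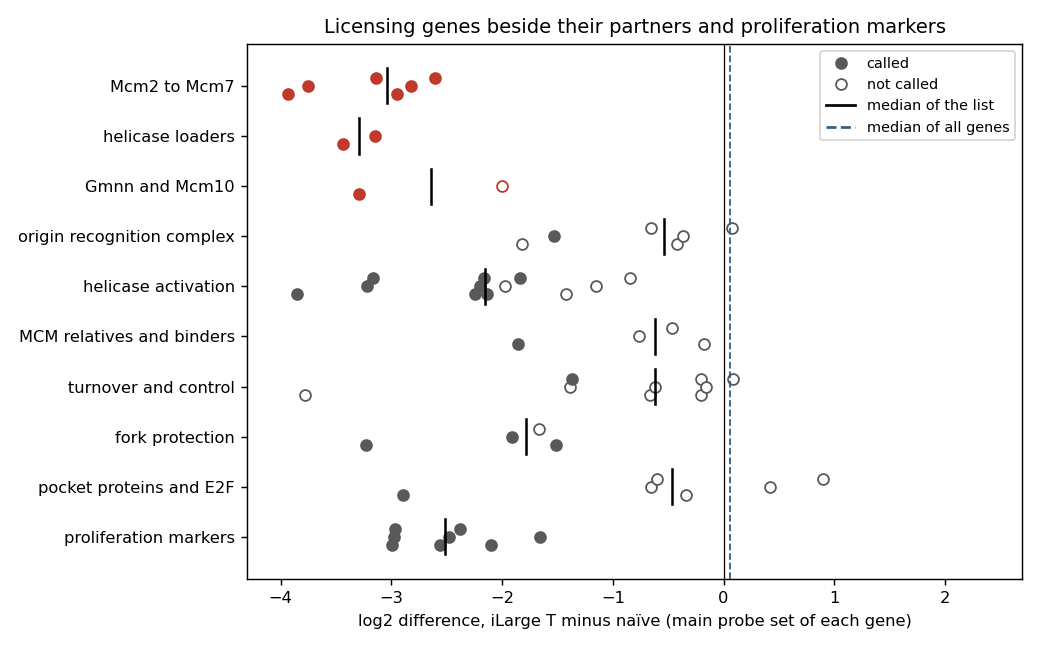
Log2 difference, iLarge T minus naïve, at the main probe set of each gene of the licensing genes (red) and of 7 further lists (grey), filled where called, with the median of each list as a black bar and the median of all genes as a dashed line (0.06). The ring subunits lie between -3.93 and -2.60, and the origin recognition complex between -1.82 and 0.08.

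Of the 6 pocket proteins and activating E2F factors, regulators upstream of these genes, 1 was called, with a median log2 difference of -0.47. The pocket protein Rbl1, itself a known E2F target, fell, with 891, 1786 and 1158 in iLarge T BMSC, against 6564, 11291 and 10196 in naïve BMSC (log2 difference -2.89, standard error 0.35, adjusted p = 0.00218). This was the main one of 4 probe sets of Rbl1. The others were not called, at -4.12 (adjusted p = 0.0619), -0.90 (adjusted p = 0.763) and 2.12 (adjusted p = 0.546), and the call was lost with the mean of the probe sets, the most variable one, both t-tests and no intensity trend. Rb1, Rbl2 and the activator E2f1 were not called, at -0.34, -0.60 and -0.66 (adjusted p = 0.575, 0.559 and 0.508). E2f2 and E2f3 gave 0.90 (adjusted p = 0.707) and 0.42 (adjusted p = 0.597), and the groups of all 5 overlapped. E2f2 was near background, with 1 iLarge T and 2 naïve arrays under the 40th percentile at its main probe set. Its other probe set gave -1.83 (limma adjusted p = 0.481). E2f1 had 1241, 4377 and 3168 in iLarge T BMSC, against 3479, 4292 and 4510 in naïve BMSC.

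The genes whose log2 signal over the 6 arrays was most like the mean of Mcm2 to Mcm7 were sought among 9850 other genes above the 40th percentile on all arrays. They were Cdkn2c, an inhibitor of the G1 cyclin-dependent kinases (Pearson r 0.9988), Zfp1, a zinc finger protein (0.9987), Hells, a chromatin remodeller of the DNA methylation machinery (0.9980), Msh6, a mismatch repair protein (0.9979), and Rbl1 (0.9972). These coefficients compare 6 points that share the difference between the groups. With the group means removed they were 0.98 for Cdkn2c, 0.98 for Zfp1, 0.96 for Hells, 0.96 for Msh6 and 0.96 for Rbl1. The genes were picked by their correlation over the same 6 arrays, so these values are no independent check.

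Without iLarge T replicate 6, on which Cdh5, Csf1r and C1qa were highest, 8 of the 10 licensing genes were called, with Cdc6 and Mcm10 not. The log2 differences were then -3.98 for Mcm2, -3.60 for Mcm5, -3.12 for Mcm3, -2.82 for Mcm4, -2.74 for Mcm7, -2.51 for Mcm6, -3.22 for Cdt1 and -3.14 for Gmnn. Without naïve replicate 1, which stood apart from its group, 9 of the 10 were called, and Mcm2 and Mcm6 gave -4.31 and -2.76.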

How the data were processed

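Total RNA of 3 iLarge T and 3 naïve Large T BMSC pools was measured on Affymetrix 430 2.0 mouse arrays. The deposited values are intensity signals that the authors made with MAS5, for which the methods name GeneChip Operating Software 1.2, scaled to a trimmed mean of 2500 per array. Scaling assumes that most genes do not change. With 3 arrays a group, precision is limited by their number.

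Of 45101 probe sets, 64 controls were left out. Of the others, 34945 have 1 gene symbol, 932 several and 9160 none listed, and 34741 were found in RefSeq (GRCm38.p6) by gene identifier, with 0 symbols changed. Log2 signals of 45037 probe sets were fitted with limma 3.58.1 in R 4.3.3 (lmFit, eBayes with intensity trend) without pairing, in scripts tested on simulated data. Tables used Python 3.11.15, pandas 2.3.3 and numpy 2.4.6. Named were the members, list genes (up to 4 values a list, called and largest change first, then brightest) and the 5 genes most like the ring. The members and lists were chosen with earlier results of these data known. Alternatives were the methods' t-test, no trend, leaving out each array, removal of dim probe sets, raised low signals, an added constant of 16, quantile normalization, other probe sets per gene and other fold thresholds. Genes without a probe set of their own, among them Ccnb1 and Ly6a, were not analysed here. P-values measure the spread between pools.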

Additional observations from a re-analysis of the deposited data

How the results depend on the processing

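Of 150 values of the 10 licensing genes under up to 15 alternatives each, 122 kept direction and call, 26 lost the call, 2 gained it and 0 changed direction. The count of 9 genes called lower was 0 by the methods' t-test on log2 signals and 1 (Mcm7) on linear signals, although all 10 had an unadjusted p under 0.05 by both, and it was 5 by limma without the intensity trend. It was 8 to 9 when an array was left out. Mcm10 was called without dim probe sets (adjusted p = 0.0449) and after dim signals were lifted to the 40th percentile (0.0298), and Cdt1 was not called at its most variable probe set (0.505). The other licensing genes, 14 lower, numbered 2 by the t-test on log2 signals, 1 on linear signals, 1 without the trend, 8 at 4-fold or more, and 7 to 14 with an array left out. Over all probe sets, 1024 lower and 1113 higher became 13 and 15 by the t-test on log2 signals, 67 and 33 on linear signals, 109 and 186 without the trend, 596 lower at 4-fold or more, 1677 higher with dim signals lifted, and 367 to 2140 lower and 422 to 2342 higher with an array left out. The cause of these changes was not tested. Both t-tests gave far fewer calls than the gene counts that the paper reports for its own t-test, so they do not reproduce its result. No paired analysis was possible because the groups share no replicate numbers in the labels, and no pairs were assumed from the order of the arrays. Signals near background limit, among others, Cdc6, Cdc45, Cdc7, Timeless and Mcm10, which had iLarge T replicate 2 under the 40th percentile.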
